A study of Mus musculus with 4 samples.

Results

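Of the 1000 distal regions that the authors listed as most enriched for H3K27ac in DSS-treated colon, 443 (44.3%) were already acetylated in the water library and carried no HNF4A peak in either condition. They were found by leaving out the 11 listed regions on the X chromosome, the 10 on the Y chromosome and the 1 on mitochondrial DNA, which left 978 on autosomes. The 227 that shared at least 1 bp with an HNF4A peak of the water or the DSS list were then removed. Of the remaining 751, those with 25 or more nucleosome tags in water were kept, a share of 59.0%. The other 308 had fewer tags in water and serve below as the regions of low starting level. The regions were thus chosen by their tags in both H3K27ac libraries, by the score made from those tags and by the absence of HNF4A peaks, and all these values are given as descriptions only. Bound and unbound, or with and without HNF4A, mean only overlap or none with a listed peak. Weaker binding left out of the lists could not be seen. With only peaks above the pooled median score counted, 524 regions would have qualified, and with no peak within 2 kb, 315.

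The libraries came from scraped colonic epithelial cells of adult mice aged 2 to 4 months. The water group drank water only, and the DSS group received 3% dextran sulfate sodium for 6 days, a chemical that injures the lining of the colon and causes colitis. Each of the 4 groups, H3K27ac in water, H3K27ac in DSS, HNF4A in water and HNF4A in DSS, was 1 library. The labels used here give no strain or sex, and no genotype beyond the heading WT on the water counts, which was read as the water group. They do not say whether animals were pooled. The identity of the scraped cells could not be checked, since the files hold no expression data. In such bulk material, more acetylation per cell and more cells of a type in which a region is acetylated cannot be told apart. Tag totals of the H3K27ac libraries were 10329416 for DSS and 10143920 for water. On the Y chromosome, 9 separate listed DSS-enriched regions had a sum of 498 tags from DSS mice and 6 from water mice, so the libraries differed there in a way the labels do not mention. The part of this difference in the autosomal values was not tested, and with 1 library per group it cannot be told apart from the DSS treatment.

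H3K27ac is the acetylation of lysine 27 on the tail of histone H3, placed by the acetyltransferases CBP and p300, and it marks active enhancers and promoters. Enhancers often carry some acetylation in the resting state and gain more when signals recruit further transcription factors, while others are acetylated only after a stimulus. HNF4A is a nuclear receptor that binds many enhancers of differentiated intestinal epithelium. No sequences are given, because no genome of the build used by the files (mm9) was at hand, and genes were not assigned to regions for the same reason.

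A tag is a mapped read. The authors counted tags separately on the nucleosomes of a region, where the modified histones sit, and on the linker between them. Their score, headed NSD, was the square root of the nucleosome tags minus that of the linker tags, each divided by the square root of the library total, in DSS minus water. Ratios below are DSS to water after scaling by the library totals. Intervals of a ratio are exact conditional (Clopper-Pearson) 95% intervals, intervals of a median are 95% order-statistic intervals over regions, and intervals of a share are Wilson 95% intervals. They cover counting error or the spread over regions, and none says how far the values would vary between animals, since each group is given as 1 library. The counts of the DSS library are headed r2, a mark that the sources used here do not explain. No p-value is given for this reason.

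The 443 regions held a median of 59 nucleosome tags in water (quartiles 37 and 104, range 25 to 513) and 144 in DSS (quartiles 101 and 218, range 26 to 700). The upper quartile of the water values therefore lay close to the lower quartile of the DSS values. The regions were between 450 and 645 bp wide, with a median of 535 bp. Per kilobase of region and 1000000 library tags, the median level was 10.9 in water (10.2 to 12.2) and 25.9 in DSS (24.8 to 28.1). For comparison, the 509 autosomal water-enriched regions without an HNF4A peak stood at 40.9 in water and 20.3 in DSS. Their acetylation in DSS thus lay below that of the 443 DSS-enriched regions, and their level in water was far above it. The DSS-enriched regions of low starting level reached only 9.23 in DSS, from 2.08 in water. The 443 regions were thus acetylated in DSS at a level between the 2 levels of the water-enriched regions.

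**Figure D1:**
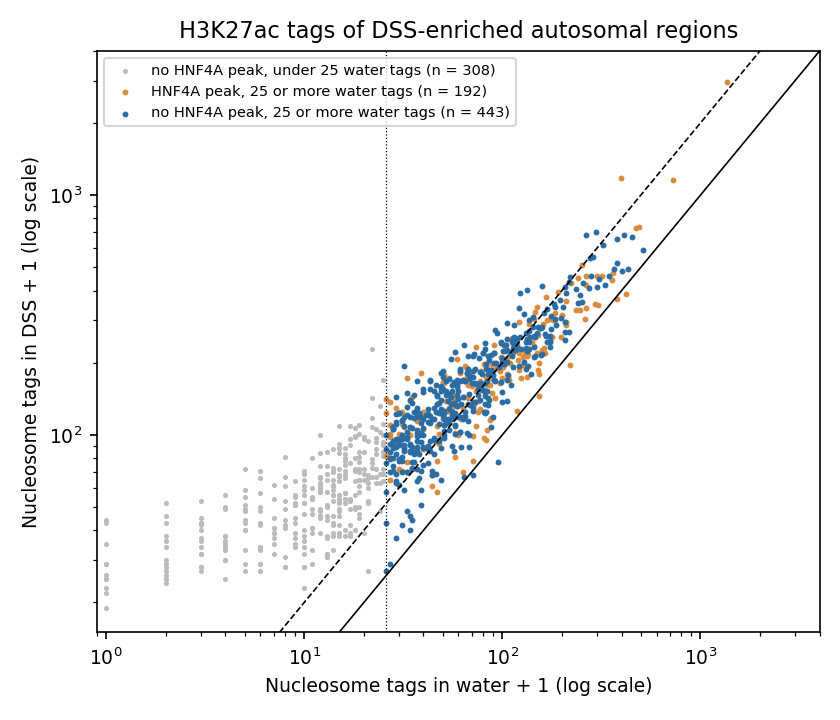
Nucleosome tags of H3K27ac in water (x axis) and DSS (y axis), each plus 1 and on a log scale, for DSS-enriched autosomal regions, with 1 point per region. Blue points are the 443 regions without an HNF4A peak and with 25 or more water tags (dotted line), orange points the 192 with a peak and as many tags, and grey points the 308 without a peak below that limit. The solid line marks equal tags and the dashed line a doubling; the blue cloud lies mostly above the dashed line at low water tags and between the lines at high ones.

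The median log2 ratio of nucleosome tags was 1.12 (1.07 to 1.19), a 2.17-fold higher level in DSS. Summed over 413 of the regions that do not overlap each other, 69896 tags in DSS stood against 34311 in water, a ratio of 2.00 (1.97 to 2.03). These tags made up 0.677% of the DSS library and 0.338% of the water library. More than a 2-fold difference was found in 268 of the 443 (60.5%), where the share over the whole DSS-enriched list was 71.7%. More than 4-fold was found in 10 (2.26%), against 27.5% over the list, and less than 1.5-fold in 56 (12.6%), against 9.8%. The interval of the ratio lay above 1 in 422 (95.3%), against 95.8% over the list, and above 2 in 113 (25.5%), against 42.1%. In the other 21 (4.74%), against 4.2% over the list, the interval held 1. The list was ranked on these same counts, and regions with few tags in water were removed by the choice of members, so these shares describe the set and nothing is read from them.

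The size of the gain followed the starting level. In the 174 regions with 25 to 49 water tags the median log2 ratio was 1.50 (1.41 to 1.56), from 34 to 95 tags at the median. In the 152 with 50 to 99 it was 1.09 (1.04 to 1.17), and in the 84 with 100 to 199 it was 0.88 (0.81 to 0.96). In the 33 with 200 or more it was 0.55 (0.44 to 0.76), from 277 to 447 tags. The ratio thus dropped at each step while the median gain in tags grew, from 63 to 81, 116.5 and 140 tags. The score works on square roots, so that a smaller ratio was enough to enter the list at a higher level, and the starting level is itself the denominator of the ratio.

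At the same starting level, regions with and without an HNF4A peak had median gains whose intervals overlapped. Both sets had to reach the same lowest listed score, which limits how small a gain could be at a given level. Similar medians are thus partly built in, and nothing about HNF4A is read from them. The 192 listed autosomal regions with 25 or more water tags and an HNF4A peak had a median log2 ratio of 1.59 (1.25 to 1.75) at 25 to 49 tags, where there were 40 of them. It was 1.06 (0.92 to 1.16) at 50 to 99 tags (73 regions) and 0.74 (0.67 to 0.82) at 100 to 199 (52 regions). At 200 or more tags it was 0.51 (0.33 to 0.65) in 27 regions. At 100 to 199 tags, where the medians lay farthest apart, the intervals met only at their ends, and the difference itself was not tested. Over all levels the bound regions stood at 1.92-fold (1.81 to 2.08) and the unbound ones at 2.17-fold (2.11 to 2.28). The bound regions also started higher, at a median of 82.5 tags in water against 59.

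**Figure D2:**
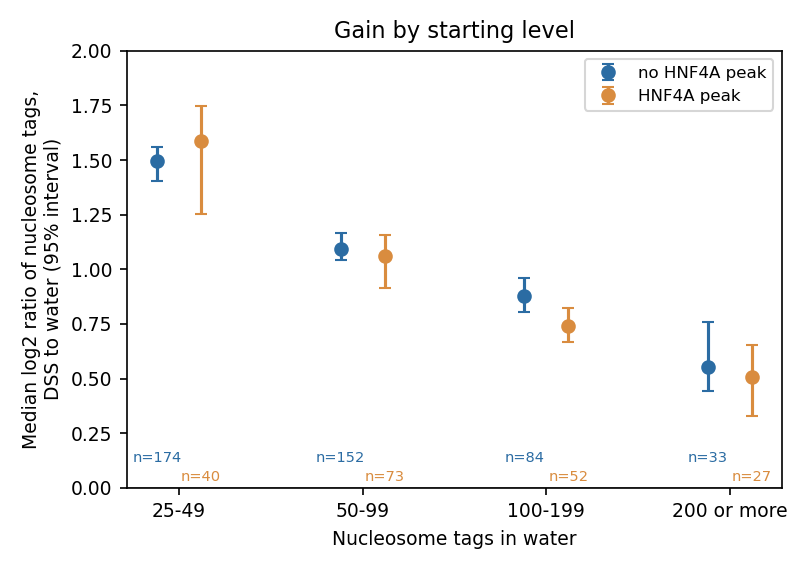
Median log2 ratio of nucleosome tags, DSS to water (y axis), by nucleosome tags in water (x axis, 4 ranges), for DSS-enriched autosomal regions without (blue) and with (orange) an HNF4A peak. Bars are 95% order-statistic intervals over regions and n is the number of regions; the median drops from 1.50 to 0.55 without HNF4A and from 1.59 to 0.51 with it, and the bars overlap in each range.

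First by score came a region on chromosome 10 (129979076 to 129979606). It held 296 nucleosome tags in water and 700 in DSS, a ratio of 2.32 (2.02 to 2.67), with 1 and 0 linker tags. A listed region overlapping it (129978726 to 129979276), the seventh by score, held 264 and 679 tags, a ratio of 2.53 (2.19 to 2.92). Another listed call, which overlaps the first (129979406 to 129980006), held 63 and 66 tags, a ratio of 1.03 (0.717 to 1.48), and its tags of all kinds were 154 in water and 93 in DSS. A water-enriched window (129979596 to 129980176) overlaps the first and the last of these calls, with 101 tags in water and 43 in DSS, a ratio of 0.418. These calls form 1 site, in which neighbouring windows went in opposite directions. No HNF4A peak lay within 1576 kb of them. No interval of the 4 lists began beyond this site on chromosome 10. A region on chromosome 17 (95263926 to 95264476) was likewise the last of the listed intervals there, with 277 tags in water, 545 in DSS and a ratio of 1.93 (1.67 to 2.24), 1162 kb from the nearest HNF4A peak. Whether these sites belong to known artefact regions was not checked.

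The region second by score, on chromosome 8 (42886691 to 42887206), had the largest ratio of the 443. It held 31 tags in water and 192 in DSS, a ratio of 6.08 (4.15 to 9.2), and lay 25.7 kb from its reference point. Distances to an unnamed reference point were read from a column headed id, whose meaning is not stated. The HNF4A peaks nearest to this region were 13.3 kb away in both libraries. A pair of overlapping calls on chromosome 13 followed. The first (104563636 to 104564276) held 132 and 400 tags, a ratio of 2.98 (2.44 to 3.65). The second (104563796 to 104564276) held 122 and 388, a ratio of 3.12 (2.54 to 3.86). A further call there (104564076 to 104564566) held 158 and 418, a ratio of 2.60 (2.16 to 3.14). The 3 calls thus gave one site with about the same ratio, which lay 9.29 kb from the reference point and 67.4 kb from the nearest HNF4A peak.

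The fifth region, on chromosome 19 (45132291 to 45132856), held many tags in both libraries, 286 and 551, at a ratio of 1.89 (1.64 to 2.19). The sixth, on chromosome 7 (107248406 to 107248991), rested on 57 and 221 tags and a ratio of 3.81 (2.83 to 5.19). The eighth, on chromosome 6 (115599741 to 115600246), held 93 and 266 tags, 2.81-fold higher in DSS (2.21 to 3.60). Of these 3 regions, the one on chromosome 19 had the most tags in both libraries and the smallest ratio. The ninth, on chromosome 1 (94077241 to 94077766), held 218 and 455 tags, a ratio of 2.05 (1.74 to 2.42). The tenth, on chromosome 9 (50398946 to 50399421), held 41 and 127 tags, a ratio of 3.04 (2.12 to 4.44), with an HNF4A peak of the water list 4.93 kb away. Of the 10 regions of highest score, it was the only one with an HNF4A peak within 10 kb.

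**Figure D3:**
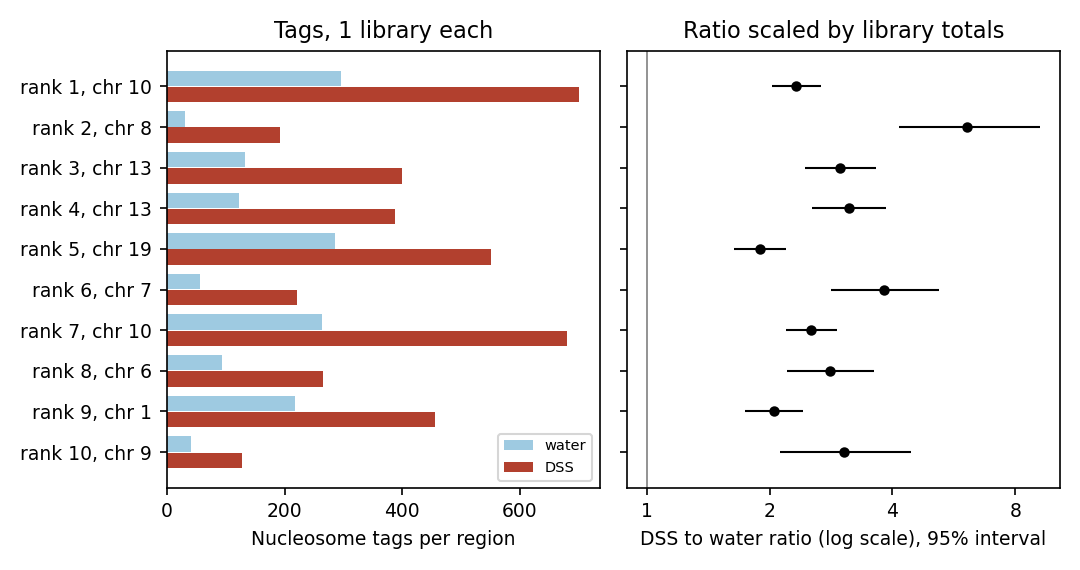
The 10 regions of highest score, by rank and chromosome. Left, nucleosome tags per region in the water (light blue) and DSS (red) libraries, 1 library each; right, the ratio of DSS to water scaled by library totals on a log axis, with exact 95% intervals for counting error. Ratios run from 1.89 to 6.08 and every interval lies above 1.

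The other regions whose ratio was surest to be large, by the lower bound of its interval, started from few tags. On chromosome 6 (121060211 to 121060766) 28 tags in water stood against 143 in DSS, a ratio of 5.02 (3.33 to 7.81). On chromosome 13 (36625961 to 36626521) the tags were 36 and 167, a ratio of 4.56 (3.16 to 6.73), 200.1 kb from the reference point and 106.2 kb from the nearest HNF4A peak. On chromosome 1 (64040116 to 64040641) they were 32 and 148, a ratio of 4.54 (3.08 to 6.88), with the nearest HNF4A peak 199.2 kb away. With 43.9 kb for the region on chromosome 6, all 3 lay well beyond the median distance to HNF4A.

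The 5 regions with the most nucleosome tags in water had ratios between 1.12 and 1.62. The highest, on chromosome 12 (58640341 to 58640941), held 513 nucleosome tags in water and 587 in DSS, a ratio of 1.12 (0.997 to 1.27). With its linker tags, 426 in water and 280 in DSS, it held 939 tags in water and 867 in DSS. The next, on chromosome 6 (117829301 to 117829891), held 449 and 665 nucleosome tags, a ratio of 1.45 (1.29 to 1.64), with 1 linker tag in each library. On chromosome 10 (94008156 to 94008756) the tags were 430 and 489, a ratio of 1.12 (0.979 to 1.27). On chromosome 9 (31087836 to 31088351) they were 412 and 680, a ratio of 1.62 (1.43 to 1.84), with water and DSS HNF4A peaks 0.506 and 0.923 kb away. On chromosome 14 (48134601 to 48135201) they were 402 and 483, a ratio of 1.18 (1.03 to 1.35). Those on chromosomes 12, 10 and 14 each lost many linker tags, whereas those on chromosomes 6 and 9 had next to none.

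The linker held few tags, with medians of 9 in water and 6 in DSS, and it usually went the other way from the nucleosomes. Linker tags were lower in DSS in 320 of the 443 regions (72.2%), where the share over the whole list was 70.4%, and higher in 98 (22.1%), against 20.9%. No linker tag in either library was found in 25 (5.64%), against 8.7%. The median log2 ratio of linker tags was -0.63 (-0.75 to -0.49). Summed over the 413 regions that do not overlap, linker tags numbered 6689 in DSS against 10205 in water, for a ratio of 0.644 (0.624 to 0.664). Most single regions had too few linker tags to resolve a ratio. The interval lay below 1 in 105 (23.7%), against 19.4% over the list, and above 1 in 3 (0.677%), against 1.5%. The score rewards a drop in linker tags, so this direction is partly built into the list.

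The linker made up 18.2% of the summed score of the 443 regions, against 12.6% in those of low starting level and 24.1% in those with HNF4A. The nucleosome tags alone would have reached the lowest listed score, 0.00127, in 215 (48.5%), against 49.1% over the list. The other members needed the linker term to enter it. In 54 (12.2%), against 11.3% over the list, the linker part was the larger one. In these 54 the median nucleosome ratio was 1.36 and the ratio of all tags 0.999, with medians of 47.5 linker tags in water and 8 in DSS. In the other 389 the ratios were 2.31 and 2.06, with 8 and 6 linker tags. The 54 were therefore not higher in acetylation at the median when every tag was counted. HNF4A peaks lay within 2 kb of 29.6% of the 54 (19.1 to 42.8) and of 28.8% of the 389 (24.5 to 33.5).

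**Figure D4:**
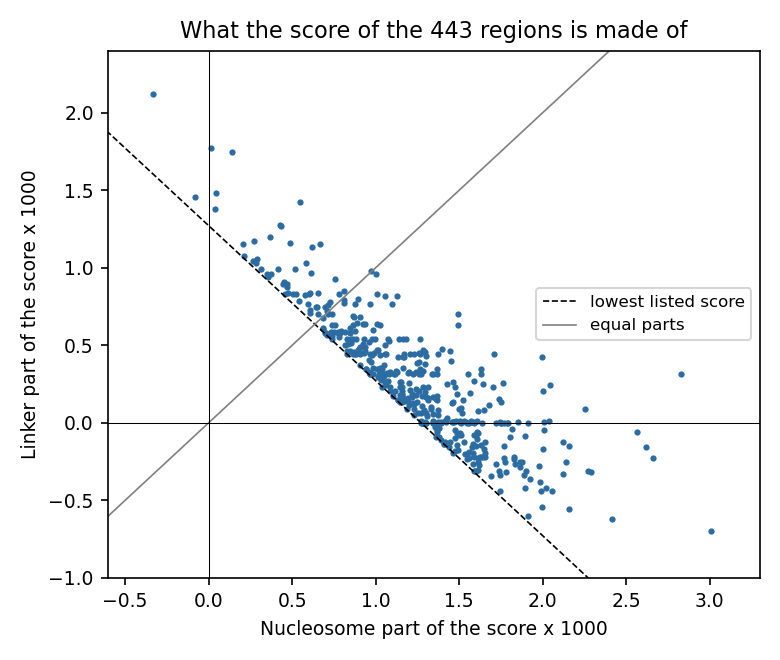
The nucleosome part (x axis) and the linker part (y axis) of the authors' score for each of the 443 regions, both times 1000 and without unit. Points above the grey line, 54 regions, owe more of the score to linker tags than to nucleosome tags; the dashed line is the lowest listed score, and points to the right of where it meets the horizontal axis reached that score by nucleosome tags alone.

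Counting all tags of a region, the median log2 ratio was 0.97 (0.90 to 1.03), a 1.95-fold higher level in DSS. It was above 2-fold in 212 regions (47.9%), against 60.1% over the list. The interval lay above 1 in 377 (85.1%), against 86.4% over the list, held 1 in 53 (11.96%), against 11%, and lay below 1 in 13 (2.94%), against 2.6%. All tags were lower in DSS, whatever the interval, in 28 (6.32%), against 5.6%. In these 13 regions the deposited score says DSS-enriched while the water library held more tags. The lowest nucleosome ratio belonged to a region on chromosome 7 (108250011 to 108250616), with 94 nucleosome tags in water and 76 in DSS, a ratio of 0.794 (0.579 to 1.09), and 340 and 139 linker tags. All its tags gave a ratio of 0.487 (0.411 to 0.574). On chromosome 13 (98919846 to 98920381) 70 and 67 nucleosome tags stood beside 92 and 25 linker tags. On chromosome 16 (24404866 to 24405416) 25 and 26 nucleosome tags stood beside 44 and 1 linker tags. In the last call of the highest-scoring site on chromosome 10 (129979406 to 129980006), 63 and 66 stood beside 91 and 27. On chromosome 14 (60220406 to 60221021) 26 and 28 stood beside 54 and 7. In each of these 5 regions the interval of the nucleosome ratio held 1 and the linker tags were lower in DSS.

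Wide regions held more linker tags. In the 123 regions of up to 500 bp the median linker count was 2 in water and 1 in DSS, and the linker part was the larger one in 5.69%. In the 54 regions above 600 bp the counts were 37.5 and 26, and the share was 22.2%. The median ratio of all tags was 2.13 in the narrow regions and 1.53 in the wide ones, while that of nucleosome tags was 2.24 and 2.00. The width of a region thus moved with the ratio of all tags more than with that of nucleosome tags.

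Of the 443 regions, 8 overlapped a region of the opposite, water-enriched list. In 6 of the 8 the linker part of the score was the larger one. The centres of the opposed windows lay between 172.5 and 545 bp apart, with a median of 195 bp. At the chromosome 7 site the DSS-enriched window held 94 nucleosome and 340 linker tags in water. The water-enriched window (108249816 to 108250431), its centre 190 bp away, held 399 and 32. In DSS the windows held 76 nucleosome and 139 linker tags, and 147 and 55. Counting all tags, both windows were lower in DSS, with ratios of 0.487 and 0.460. At the chromosome 12 site with the most water tags the all-tag ratios were 0.907 and 0.891, and at a site on chromosome 11 (32454016 to 32454621) they were 0.909 and 0.95. On chromosome 18 (61179376 to 61179966) both windows were higher in DSS by all tags, with ratios of 1.65 and 1.84. At the highest-scoring site on chromosome 10 the first call and the water-enriched window stayed opposed with every tag counted, at 2.31 and 0.598. In the remaining pairs, on chromosomes 7 (137791106 to 137791716), 10 (129979406 to 129980006) and 13, the all-tag ratios of both windows were below 1. In 7 of the 8 pairs both windows thus lay on the same side of 1 by all tags. The windows of a pair overlap, so this is partly built in, and the chromosome 10 pairs share the same water-enriched window.

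Although no HNF4A peak touched them, most of the 443 regions had one nearby. A peak of the water list lay within 2 kb of 114 (25.7%, interval 21.9 to 30.0), within 10 kb of 241 (54.4%, 49.8 to 59.0) and within 50 kb of 385 (86.9%, 83.5 to 89.7). For the shorter DSS list these numbers were 88 (19.9%, 16.4 to 23.8), 189 (42.7%, 38.1 to 47.3) and 332 (74.9%, 70.7 to 78.8). The median distance to the nearest peak was 8.03 kb (5.99 to 10.1) in water and 13.4 kb (11.0 to 17.4) in DSS. The closest, on chromosome 1 (42562411 to 42562871), bordered a water peak directly, with 27 tags in water and 89 in DSS. At the other end, 49 regions (11.1%) lay more than 50 kb from any peak of either list.

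Regions of low starting level lay farther from HNF4A. A water peak was within 10 kb of 45.5% of them (interval 39.98 to 51.0), which is 8.95 points fewer than for the 443 (1.68 to 16.1, Newcombe interval). A DSS peak was within 10 kb of 32.5% (27.5 to 37.9), 10.2 points fewer (3.14 to 17.0). At 2 kb the differences were 8.20 points (2.17 to 13.9) for water and 7.85 points (2.49 to 12.9) for DSS. The 443 could not be told from the water-enriched regions without a peak, of which 57.0% and 41.1% had a water and a DSS peak within 10 kb, differences of -2.57 points (-8.87 to 3.74) and 1.60 points (-4.66 to 7.86). Some regions overlap and share a peak, which makes these intervals too narrow. Both sets near HNF4A also held more H3K27ac tags in water than the set farther away, and the part of tag level in the distances was not tested.

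**Figure D5:**
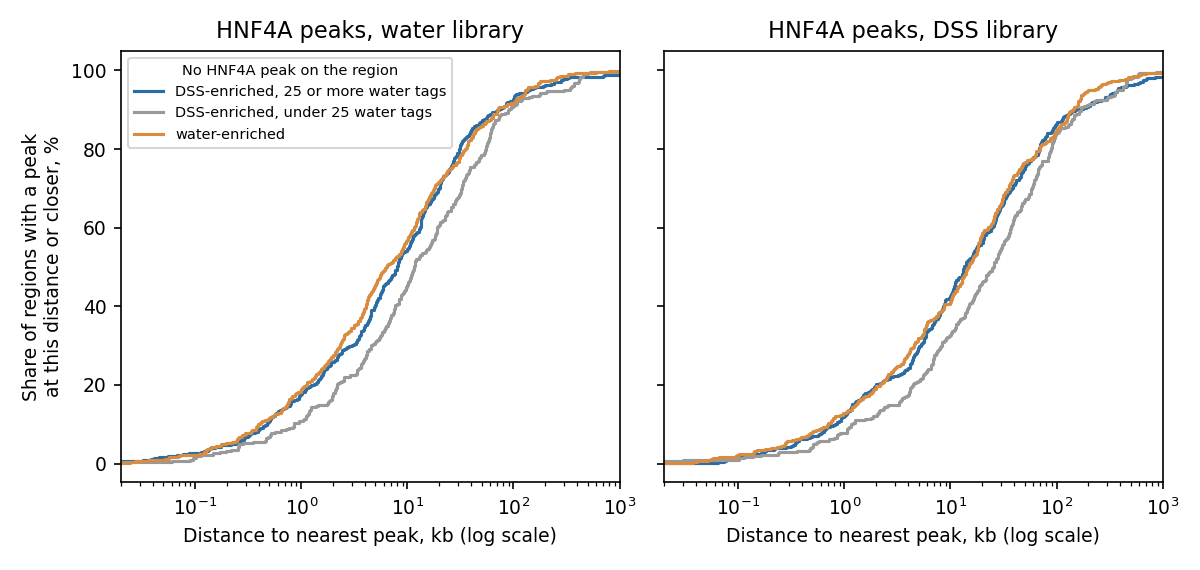
Share of regions (y axis, %) with an HNF4A peak at a given distance or closer (x axis, kb, log scale), for the water peak list (left) and the DSS peak list (right). All regions lack a peak of their own; the blue line is the 443 DSS-enriched regions with 25 or more water tags, grey the 308 with fewer, and orange the 509 water-enriched ones. At 10 kb the blue line stands at 54.4% and 42.7%, close to orange and above grey.

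The peaks near the 443 regions were of middling strength and were often found in both conditions. The 218 nearest water peaks within 10 kb had a median rank percentile of 56.8 among all water peaks, where 100 is the strongest, and 132 of them (60.6%, interval 53.9 to 66.8) overlapped a DSS peak. Over all 17886 water peaks the share was 52.9%. Of the 169 nearest DSS peaks, 142 (84.0%, 77.8 to 88.8) overlapped a water peak, against 82.3% over all 10688. Counting by region, 171 had peaks of both libraries within 10 kb, 70 a water peak alone, 18 a DSS peak alone and 184 none. The water list is the longer one, so the larger count for water alone is not read as more binding. Those with a DSS peak alone had 43.5 tags in water and 111 in DSS at the median, and those with a water peak alone 78.5 and 169.5. Their median ratios were 2.12 and 2.12, beside 2.13 with both and 2.25 with none.

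The median gain in acetylation was about the same at all distances up to 50 kb from an HNF4A peak and higher beyond, with intervals that overlapped. The gain is made from the tags that ranked the list, so these values describe the set only. The median log2 ratio was 1.09 (0.99 to 1.17) in the 128 regions within 2 kb of a peak of either list and 1.09 (0.99 to 1.30) in the 131 between 2 and 10 kb. It was 1.12 (1.01 to 1.25) in the 135 between 10 and 50 kb and 1.27 (1.12 to 1.43) in the 49 farther away. More than a 2-fold difference was found in 58.6% (49.9 to 66.8), 58.8% (50.2 to 66.8), 59.3% (50.8 to 67.2) and 73.5% (59.7 to 83.8) of them. All these intervals overlap. The starting levels were alike, with medians of 64.5, 57, 56 and 60 tags in water.

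The regions were spread over the genome and not far from the reference points, as the distances were read here. The median distance to these was 21.1 kb (17.7 to 23.0), beside 21.7 kb in regions of low starting level, 21.4 kb in those with HNF4A and 24.8 kb in water-enriched ones without it. Within 10 kb lay 130 (29.3%), between 10 and 50 kb 220 (49.7%), between 50 and 100 kb 55 (12.4%) and beyond 38 (8.58%). The median ratios in these ranges were 2.13, 2.13, 2.36 and 2.53. In regions of low starting level they were 5.0, 5.1, 4.3 and 5.1. In those with HNF4A and 25 or more water tags they were 1.7, 2.0, 1.7 and 2.3, so neither set rose at each step. The ratios are made from the tags that ranked the list, and these values describe the sets only. All 19 autosomes held members, from 11 on chromosome 14 to 39 on chromosome 4. They made up between 30.2% (18.6 to 45.1) of the listed regions on chromosome 19 and 59.6% (45.3 to 72.4) on chromosome 3. These intervals barely separate, and they belong to the lowest and the highest of 19 chromosomes.

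Some of the 443 belonged to larger sites. Within 10 kb of another listed DSS-enriched region lay 116 (26.2%, interval 22.3 to 30.5), and 67 overlapped one. The share within 10 kb was 18.8% in regions of low starting level and 27.1% in those with HNF4A and 25 or more water tags. Of the water-enriched regions without HNF4A, 34.6% lay as close to another region of their own list. After overlapping calls were reduced to the one of highest score, the count was 59 of 409 (14.4%, 11.4 to 18.2). The shares of the other sets, in the same order, were then 13.5%, 10.7% and 19.2%, so such grouping was not particular to the 443. Pairs of members that overlap numbered 32, and their log2 ratios differed by a median of 0.20, by less than 0.5 in 28 of them and by up to 1.17. A water-enriched region was found at up to 10 kb from 27 of the 443 (6.09%, 4.22 to 8.72). The share was 2.27% (1.10 to 4.62) in regions of low starting level and 5.73% (3.23 to 9.97) in those with HNF4A and 25 or more water tags. Of the 27, 8 overlapped such a region, against 0 of those of low starting level. Water-enriched regions without an HNF4A peak held at least 50 nucleosome tags in water. The part of the tag limit in this contrast was not tested. Linked at gaps of up to 50 kb, 323 regions stood alone, 45 groups held 2 and 10 groups held 3.

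Among the groups of 3, the one on chromosome 12 (112667181 to 112676431) had 3 separate members, with 70, 36 and 27 tags in water and 212, 101 and 105 in DSS. Their ratios were 2.97 (2.26 to 3.96), 2.76 (1.87 to 4.15) and 3.82 (2.48 to 6.07). The span held 7 listed DSS-enriched regions in all, and the nearest HNF4A peak was 0.155 kb from the first member. The interval lay above 2 in the first and the last of them. On chromosome 8 (129114741 to 129185246) the 3 separate members held 70, 50 and 67 tags in water and 136, 109 and 88 in DSS, and 4 HNF4A peaks of each list lay between them. Only the second of these had clearly more tags of all kinds in DSS, 114 against 63, and the others held 278 against 291 and 140 against 171.

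On chromosome 3 (122223391 to 122224681) overlapping calls held 35, 91 and 79 tags in water and 145, 274 and 219 in DSS, with ratios between 2.72 and 4.07, 98.2 to 98.9 kb from the reference point. On chromosome 4 (138224871 to 138259466) 2 overlapping calls had high starting levels, 209 and 378 tags, and ratios of 1.83 (1.54 to 2.17) and 1.35 (1.18 to 1.54). The third member (138258926 to 138259466) had 28 tags in water, 121 in DSS and a ratio of 4.24 (2.80 to 6.65). Neighbouring regions of a group could therefore differ in starting level and in ratio. In the other groups on chromosomes 5, 14 and 17, ratios ran from 1.76 to 2.81, from 1.18 to 2.33 and from 1.61 to 3.24. Chromosome 10 had 2 groups, with ratios from 1.90 to 2.90 (6495151 to 6506861) and, at the site of highest score, from 1.03 to 2.53. The chromosome 13 group is the site described above, with ratios from 2.60 to 3.12.

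A cluster of 8 listed DSS-enriched regions on chromosome 6, named for Hk2, the gene of the glycolytic enzyme hexokinase 2, held 2 of the 443. The first (82714011 to 82714541) went from 33 tags in the water library to 107 in DSS, a ratio of 3.18 (2.14 to 4.86). The second (82726716 to 82727341) held 37 and 99, a ratio of 2.63 (1.78 to 3.94). Of the 6 other listed regions there, 5 had between 5 and 19 tags in water and 1 carried an HNF4A peak.

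The limit of 25 water tags cuts through a continuous range. The 6 regions with exactly 25 tags held between 26 and 99 tags in DSS, with ratios from 1.02 to 3.89 and a median of 2.59. The 10 unbound regions with 24 tags held between 63 and 168, with ratios from 2.58 to 6.87 and a median of 3.56. Over 5 tags on either side, the 47 regions just inside had a median ratio of 3.12 and the 39 just outside 3.44. The share of regions with an HNF4A peak also moved with the starting level. It was 192 of 635 autosomal regions (30.2%, interval 26.8 to 33.9) at 25 or more tags and 35 of 343 (10.2%, 7.43 to 13.9) below.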

How the data were processed

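H3K27ac and HNF4A ChIP-seq of colonic epithelium gave 4 libraries, 1 per group. The authors deposited raw tag counts per region, on nucleosomes and linker, with reads marked MAPQ20, per the file headers; tags were read as belonging to water where headed WT. They also deposited a score per region and, in the HNF4A lists, a score per peak of 600 bp whose kind is not stated. CASAVA 1.8.2 and MACS2 are tools, and mm9 the build, given in the submitters' processing notes; the aligner is not given in the sources used here. The score was rebuilt from the counts, which gave the library totals. A column headed id, whose meaning is not stated, was read as the distance in bp to an unnamed reference point. Coordinates are printed as deposited; region starts were read as counted from 0, since all 1000 widths (end minus start) are multiples of 5 bp.

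Ratios were scaled by the totals, and log2 ratios used a pseudocount of 0.5. Calls of 2-fold and the like used ratios without it. Overlap meant at least 1 bp shared. Python 3.11.15, scipy 1.17.1, pandas 2.3.3 and numpy 2.4.6 were used, and the functions were tested on simulated data. Precision is set by the tags per region. Alternatives covered the HNF4A lists, the tag limit, merging, crowded windows, scaling and distances. The regions named were the 10 of highest score, the 5 with the most water tags, the 5 with the highest lower bound and the 5 with the lowest ratio, groups of 3, and those at the tag limit; regions that overlap the opposite list, stand at the end of the listed intervals, border a peak or lie at the Hk2 locus were added after their values were seen. The regions and comparisons were chosen with earlier results of these data known. The planned motif search was not made.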

Additional observations from a re-analysis of the deposited data

How the results depend on the processing

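Of 116 recomputed values for 11 results, 94 stayed within their interval or within 1.5 times the count reported, and 22 moved beyond. Most of these results are counts or a distance, which have no direction to change. The ratios kept theirs, but the list was chosen on the same tags, so this was partly built in. With a limit of 38 water tags the median log2 ratio was 1.02, the pooled ratio 1.92 and the count above 2-fold 169; with a limit of 15 the first values were 1.25 and 2.10. All tags gave 0.97 and 1.71, and a pseudocount of 5 gave 1.06, with -0.36 for linker tags. The pooled ratio over all 443, 2.01, was 2.05 unscaled, 2.07 with no HNF4A peak within 2 kb, 1.98 with the HNF4A lists at equal length and 1.96 with only peaks above the pooled median score. Counts were compared without regard to the number of regions, so some shares moved although the counts stayed within 1.5 times. A water peak lay within 10 kb of 201 of 481 regions at equal list length and 180 of 524 with the stronger peaks only. A DSS peak lay within 10 kb of 159 of the 524. As shares, all of these lie below the intervals reported for the 443. Without peaks within 2 kb, 123 regions had a water and 89 a DSS peak within 10 kb, and 15 a water-enriched region. At 2 kb the peak counts were 114 and 88, at 50 kb 385 and 332, and 72 regions had a water-enriched region within 50 kb. Reducing overlapping members left 63 near another DSS-enriched region. Leaving out the 5 regions more than 1 Mb from any peak, or reading starts as counted from 1 (442 regions), both chosen after seeing the data, moved nothing beyond these limits. No paired analysis was possible because each group had 1 library. Tag depth limits single linker ratios, whose interval lay below 1 in 105 regions and above 1 in 3.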
